A study of Mus musculus with 6 samples.

Results

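miR-211 and miR-204 are paralogous microRNAs, each cut from a hairpin inside an intron of a cation-channel gene, miR-211 from Trpm1 and miR-204 from Trpm3. The 4 mature products examined, out of 1907 mature mouse miRNAs in the count table, were both arms of each hairpin: mmu-miR-211-5p, mmu-miR-211-3p, mmu-miR-204-5p and mmu-miR-204-3p. miR-211 was chosen by its measured difference between 2i and R2i in these same libraries, and miR-204 was added as the paralog with the same seed. The miR-211 values below are therefore a description, given with errors but with no test, and among the 4 products tests are reported for miR-204 alone. The arms of miR-211 do enter the counts of miRNAs called over the whole table, and nothing about miR-211 is read from that. Of the 4 products, 3 passed the filter on low counts that left 571 miRNAs for testing, and miR-204-3p, with 0 counts everywhere, did not.

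Small RNA was sequenced from C57BL/6 mouse embryonic stem cells (ESCs) of lines RB18 and RB20, each kept in serum, 2i or R2i, so that there were 6 libraries, 2 per medium. All cells received LIF, a cytokine that sustains self-renewal, at 1000 U/ml. Serum cells grew in Knockout DMEM with 15% fetal bovine serum. Cells in 2i were in serum-free N2B27 with 1 µM PD0325901, which blocks MEK and so the FGF-ERK pathway, and 3 µM CHIR99021, which blocks GSK3. R2i cells had the same base medium and 1 µM PD0325901, but 10 µM SB431542, a TGF-β receptor inhibitor, took the place of CHIR99021. Both lines had first been derived in R2i and were then carried for at least 10 passages in 2i or serum, and every library was made from a pool of 3 cultures.

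In each library the miRNA counts added up to between 1041858 and 3593356. RB18 gave the shallower library in every medium, so line and depth cannot be told apart. Levels are given as normalized CPM, that is counts per 1000000 of the library's total after adjustment by edgeR's TMM factor, and brackets give 95% Poisson intervals, which cover counting error only. The 6 miRNAs taken as ESC markers, from the miR-290 and miR-302 clusters, summed to between 264375 and 345681 normalized CPM, so the labelled cell type carried its markers in every library.

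miR-211 and miR-204 act by pairing their seed, bases 2 to 8 from the 5′ end, with sites in target mRNAs. miR-211 is best known from melanocytes, where it is made together with Trpm1 under the control of the transcription factor MITF, and its loss is a common event in melanoma. miR-204 is abundant in the retinal pigment epithelium, the choroid plexus and other Trpm3-expressing tissues, where it helps to maintain epithelial properties. The TGF-β receptor Tgfbr2 is a target described for both.

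The mature sequences, from RefSeq on GRCm38.p6, are shown 5′ to 3′ with the seed in capitals because they define which arms share targets and how far reads of the paralogs can be separated.
miR-211-5p: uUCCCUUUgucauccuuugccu
miR-204-5p: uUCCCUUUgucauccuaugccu
miR-211-3p: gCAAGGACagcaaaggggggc
miR-204-3p: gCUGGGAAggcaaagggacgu
The 5p arms had the same seed and were identical at 21 of 22 positions. Their only difference was U17A, counted from the 5′ end with the miR-211-5p base first. Reads that end before position 17 therefore cannot be assigned to either paralog by sequence. The 3p arms had different seeds and matched at 14 of 21 positions without gaps. Among 1679 mature mouse miRNAs in the RefSeq table, miR-7670-3p was the only other one with the seed of the 5p arms, and it had 0 counts in these libraries.

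The hairpins are printed with the mature arms in capitals, to show where the sequenced fragments come from.
Mir211: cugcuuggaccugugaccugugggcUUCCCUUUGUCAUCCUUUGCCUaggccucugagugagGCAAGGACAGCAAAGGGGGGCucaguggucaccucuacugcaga
Mir204: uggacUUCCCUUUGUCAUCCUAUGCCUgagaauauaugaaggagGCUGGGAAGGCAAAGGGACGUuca
Mir211 lies at chr7:64205806-64205911 on the plus strand, and Mir204 at chr19:22750605-22750672, also on the plus strand (GRCm38). Each lies on the strand of its host gene, and in the principal transcript of each host (GENCODE M21) the hairpin sat in intron 6. That intron is 3682 bases long in Trpm1 and 33462 bases long in Trpm3. No annotated transcript placed either hairpin in an exon, since all 12 Trpm1 and all 18 Trpm3 transcripts that span it had it in an intron. The mRNAs of the host genes were not measured. The Trpm1 locus holds another annotated miRNA gene, Mir6416 on the opposite strand, whose arms had 0 counts each in the 6 libraries.

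miR-211-5p was far more abundant in 2i than in either other medium. In RB18 it had 2390 counts in 2i, 107 in serum and 41 in R2i, which is 1161 (1115 to 1208), 58.6 (48.0 to 70.8) and 35.2 (25.2 to 47.7) normalized CPM. In RB20 it had 5712, 102 and 268 counts, or 1743 (1698 to 1789), 50.5 (41.2 to 61.4) and 76.6 (67.7 to 86.4) normalized CPM. Both 2i libraries lay above the other 4, whereas the serum values fell between those of the R2i libraries. In these bulk libraries, more miR-211 per cell and more cells that hold it cannot be told apart.

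**Figure D1:**
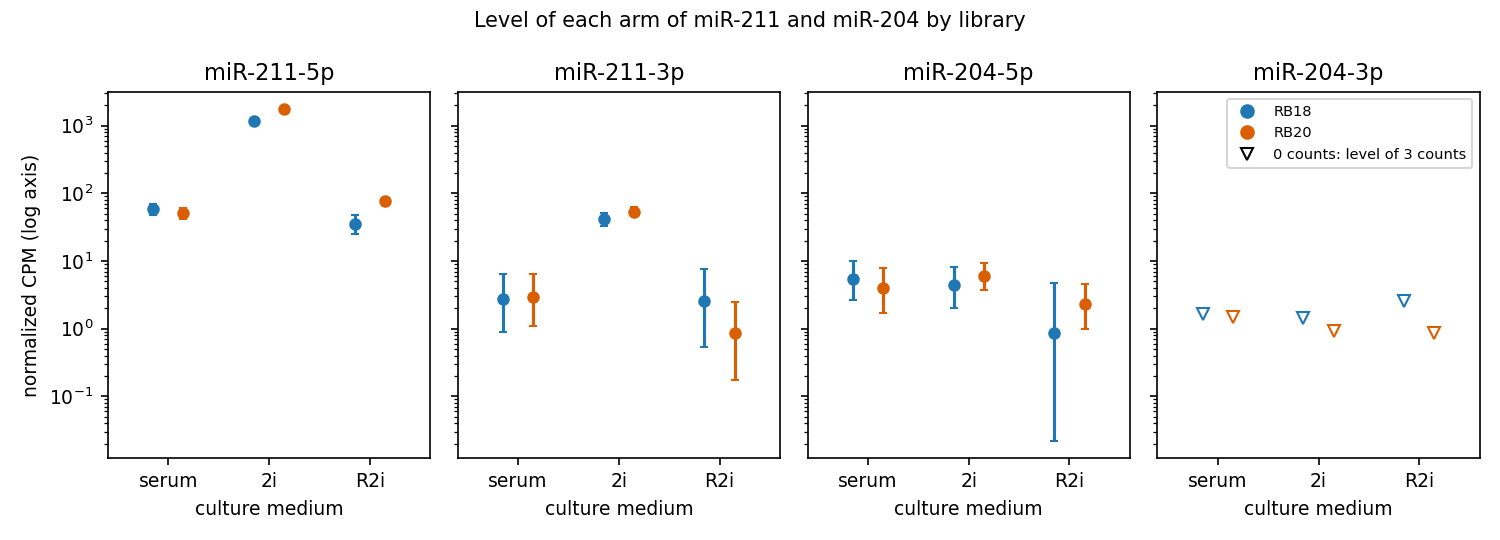
Normalized CPM on a log axis for each arm in the 6 libraries, by medium, with RB18 in blue and RB20 in orange. Bars are 95% Poisson intervals, and open triangles mark 0 counts, drawn at the level that 3 counts would have in that library. Both arms of miR-211 stand highest in 2i, while the miR-204-5p points of serum and 2i overlap.

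Averaged over the lines, miR-211-5p stood at 1452 ± 411.8 normalized CPM in 2i, 54.6 ± 5.67 in serum and 55.9 ± 29.3 in R2i (SD, n = 2 libraries each). In the fit, its log2 difference was 4.73 (standard error 0.44) for 2i minus serum and 4.66 (standard error 0.44) for 2i minus R2i. For R2i minus serum it was 0.07 (standard error 0.40), a difference smaller than its error. In order of level, 2i came first, and serum and R2i could not be ranked, since their libraries overlapped.

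Within each line the 2i level exceeded serum 19.8-fold in RB18 (counting interval 16.3 to 24.3) and 34.5-fold in RB20 (28.4 to 42.4). Against R2i, the same ratio was 33.0-fold in RB18 (24.3 to 46.1) and 22.8-fold in RB20 (20.1 to 25.8). The lines differed in the remaining comparison, R2i over serum, with a ratio of 0.600 in RB18 (0.408 to 0.868) and 1.52 in RB20 (1.20 to 1.92). Without R2i RB20, the log2 difference of R2i minus serum went from 0.07 to -0.63 and that of 2i minus R2i from 4.66 to 5.38.

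miR-211-5p also changed its place among all miRNAs. By count it ranked 72nd of 909 miRNAs detected in 2i RB18 and 57th of 945 in 2i RB20. In serum it ranked 253rd of 863 and 273rd of 908, and in R2i 313th of 805 and 244th of 964. Its share of all miRNA counts was 0.116% and 0.170% in 2i and stayed between 0.00394% and 0.00746% in the other 4 libraries. Even in 2i, then, it was a minor part of the miRNA pool.

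The replicate libraries of miR-211-5p were not equally close in every medium. On the log2 scale, RB20 minus RB18 was -0.21 in serum, 0.59 in 2i and 1.11 in R2i. The median size of this line difference over the 571 miRNAs was 0.42, 0.22 and 0.34, so miR-211-5p was more even than most in serum and less even in the 2 inhibitor media.

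miR-211-3p, the passenger arm of the same hairpin, was likewise highest in 2i, at a much lower level. In RB18 it had 86 counts in 2i, 5 in serum and 3 in R2i, and in RB20 175, 6 and 3. Both 2i libraries were above all others. In mean normalized CPM it had 47.6 ± 8.23 in 2i, 2.85 ± 0.167 in serum and 1.72 ± 1.21 in R2i (SD, n = 2).

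The log2 difference of miR-211-3p was 4.04 (standard error 0.42) for 2i minus serum and 5.10 (standard error 0.47) for 2i minus R2i. With 3 counts in each R2i library, the ratio of 2i to R2i was 16.2 in RB18 (counting interval 5.37 to 80.3) and 62.3 in RB20 (20.96 to 304.8), so its size is poorly fixed. R2i minus serum was -1.06 (standard error 0.64) and rests on 6 counts against 11. Leaving out R2i RB18 took it to -1.67 and leaving out R2i RB20 to -0.15.

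The 5p arm made up nearly all miR-211 reads whatever the level of the hairpin. It took 95.5% (95% Wilson interval 90.0 to 98.1) and 94.4% (88.4 to 97.4) of miR-211 counts in serum RB18 and RB20. Its share was 96.5% (95.7 to 97.2) and 97.0% (96.6 to 97.4) in 2i, and 93.2% (81.8 to 97.7) and 98.9% (96.8 to 99.6) in R2i. The serum and 2i intervals overlapped, and the R2i libraries lay on either side of them, so no shift of arm use with the medium was detectable at this depth.

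miR-204-5p had few reads in every library, at most 20, and did not pass the test in any comparison. In RB18 it had 9 counts in 2i, 10 in serum and 1 in R2i, which is 4.37, 5.47 and 0.857 normalized CPM. In RB20 it had 20, 8 and 8, which is 6.10, 3.96 and 2.29. The medium means were 5.24 ± 1.22 in 2i, 4.72 ± 1.07 in serum and 1.57 ± 1.01 in R2i (SD, n = 2). Serum and 2i overlapped, and the R2i libraries were the lowest of the 6. It passed the filter on low counts through serum RB18 and 2i RB20.

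For miR-204-5p, 2i minus serum was 0.18 on the log2 scale (standard error 0.55, adjusted p = 0.807, edgeR), beside 195 of 571 miRNAs (34.2%) called in that comparison. R2i minus serum was -1.32 (standard error 0.66, adjusted p = 0.148, edgeR), beside 175 (30.6%) called. 2i minus R2i was 1.498 (standard error 0.62, adjusted p = 0.261, edgeR), beside 2 (0.35%) called, both of them arms of miR-211. The unadjusted p of miR-204-5p there was 0.0447 (edgeR), and 104 of the 571 miRNAs had one below 0.05. A call needed an adjusted p below 0.01 together with a fold beyond 2. These errors leave room for changes of more than 2-fold, and R2i RB18 had a single read, so the depth does not show whether miR-204-5p differs between media. Without R2i RB20, R2i minus serum moved to -2.37 and 2i minus R2i to 2.57, and neither passed the test.

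miR-204-3p was not detected. It had 0 counts in all 6 libraries, which at 3 counts allows up to between 0.858 and 2.57 normalized CPM, depending on the library.

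Because the 5p arms share their seed, their summed level gives the family's supply of that seed. Summed in normalized CPM, RB18 had 1165 in 2i, 64.0 in serum and 36.0 in R2i, and RB20 had 1749, 54.5 and 78.9. miR-211-5p supplied most of it in every medium. Its share of the 5p counts was 91.5% (95% Wilson interval 85.0 to 95.3) and 92.7% (86.3 to 96.3) in serum, 97.6% (87.7 to 99.6) and 97.1% (94.4 to 98.5) in R2i, and 99.6% (99.3 to 99.8) and 99.7% (99.5 to 99.8) in 2i.

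**Figure D2:**
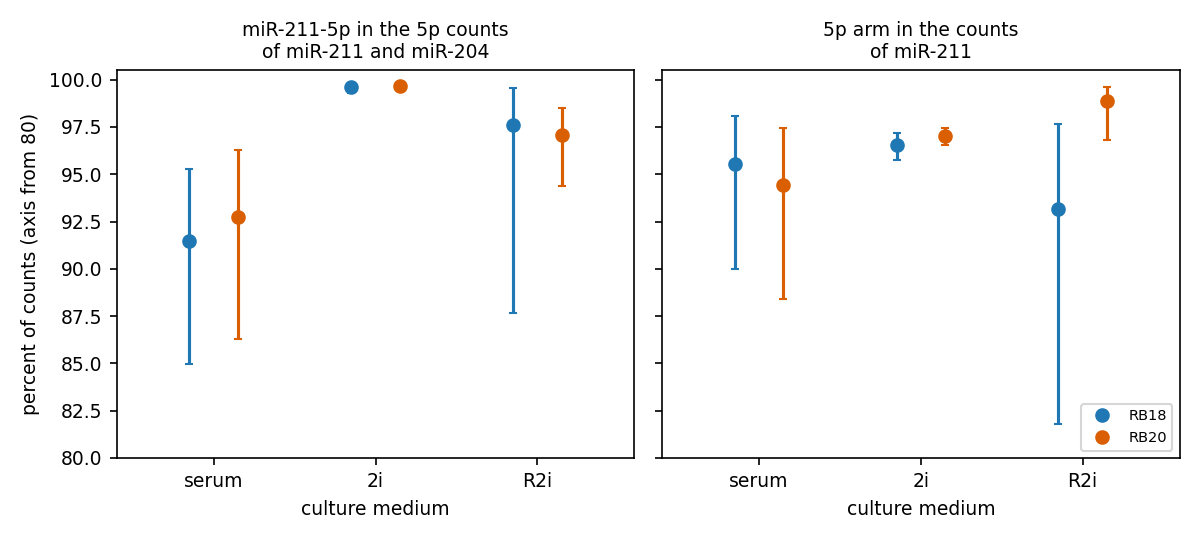
Percent of counts by medium, on an axis that starts at 80, for miR-211-5p within the 5p counts of both paralogs (left) and for the 5p arm within miR-211 (right), with RB18 in blue, RB20 in orange and 95% Wilson intervals. The paralog share is highest in 2i, with intervals above those of serum, and the arm share shows no such order.

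The 2i intervals of this share lay above those of serum and of R2i RB20, and overlapped the interval of R2i RB18, which rests on 42 reads. Put the other way, miR-204-5p was 0.375% and 0.349% of the 5p counts in 2i and 8.55% and 7.27% in serum. With only position 17 between the paralogs, a misread miR-211-5p could be counted as miR-204-5p. The part of such reads in the miR-204-5p counts was not tested, and in 2i those counts were 9 beside 2390 and 20 beside 5712 of miR-211-5p.

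In the comparison of 2i with R2i across all miRNAs, 2 of 571 (0.35%) were called, and both were the arms of miR-211. This is the contrast on which miR-211 was chosen, and miR-211-3p passed the filter on low counts through its 2i libraries alone, so nothing is read from these calls. The number called over all miRNAs was itself unsteady. Fitting the cell line as a replicate block left 0 called by edgeR, with 102 miRNAs at an unadjusted p below 0.05 and a smallest adjusted p of 0.0174. Leaving out serum RB18 also left 0 (131 at an unadjusted p below 0.05), and leaving out 2i RB20 or R2i RB20 left 1. DESeq2 called 12 miRNAs. The log2 difference of miR-211-5p itself ranged from 4.28 to 5.38 over these and the other fits.

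**Figure D3:**
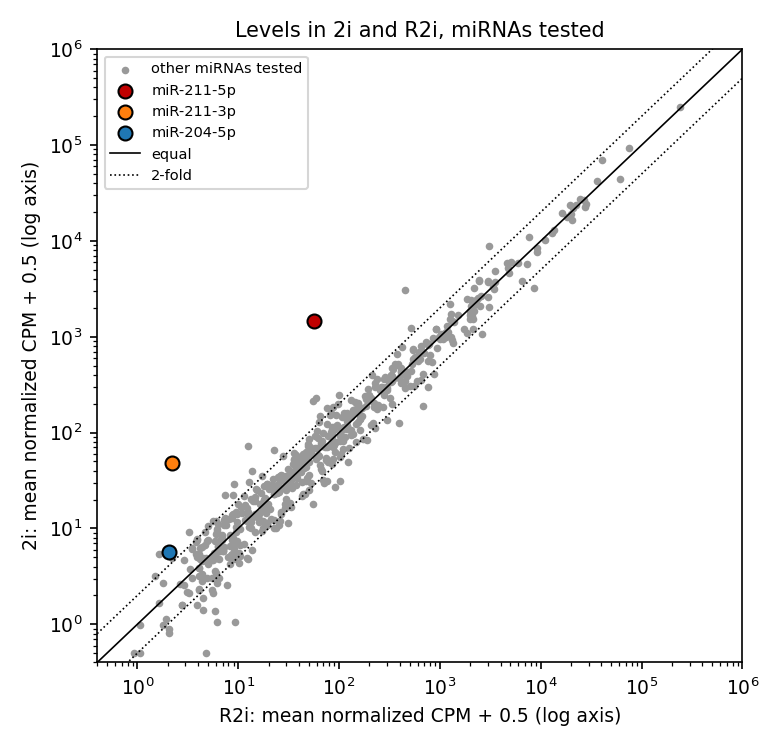
Mean normalized CPM plus 0.5 in 2i (vertical) against R2i (horizontal), both on log axes, for the 571 miRNAs tested; the solid line is equality and the dotted lines are 2-fold. The miR-211 arms, at 1452 against 55.9 and 47.6 against 1.72 normalized CPM, lie far above the 2-fold line, and miR-204-5p lies among the lowest miRNAs.

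The profile of miR-211-5p over the 6 libraries was compared with those of the other miRNAs tested. Likeness was measured as the root mean square difference, in log2 units, between profiles centred on their own means over the 6 libraries. This distance depends on the size of the changes, and miR-211 was chosen for a large one. Its distance from most miRNAs therefore follows from that choice, and nothing is read from it. The passenger miR-211-3p was nearest to miR-211-5p, at 0.74. The next were miR-3085-3p (1.24), miR-493-3p (1.25), miR-1981-3p (1.41) and miR-5114 (1.52), against 2.29 for the median miRNA. miR-211-5p spanned 5.60 log2 units. The 4 miRNAs after the passenger spanned between 2.45 and 3.77, so they rose toward 2i less steeply.

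**Figure D4:**
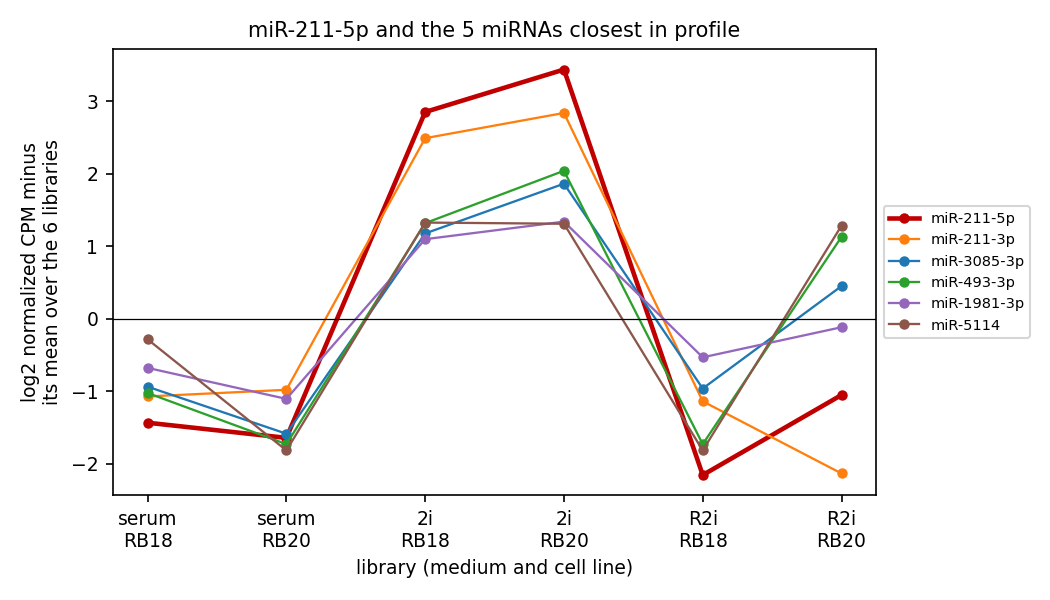
Log2 normalized CPM minus its mean over the 6 libraries, by library, for miR-211-5p (thick red line) and the 5 miRNAs nearest to it. Beyond miR-211-3p, the others sit lower in 2i than miR-211-5p and higher in R2i RB20.

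miR-1981-3p had 124 and 234 counts in 2i against 31 and 25 in serum and 22 and 89 in R2i. miR-3085-3p had 45 and 117 in 2i, 8 and 5 in serum, and 5 and 45 in R2i. miR-493-3p, from the Dlk1-Dio3 locus, and miR-5114 had no more than 36 counts in any library. For miR-204-5p, the 3 nearest were miR-1199-3p (0.34), miR-33-3p (0.35) and miR-188-3p (0.35), against 0.89 for the median miRNA, and with so few counts this likeness is loose. With a prior count of 0.5 in place of 2, miR-224-5p and miR-125b-1-3p came first and miR-1199-3p after them.

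Markers of other cell types were read beside the miR-211 result. The 5 fibroblast or mesenchyme markers summed to 3329 and 3651 normalized CPM in 2i, above 1431 to 2046 in serum and 2414 to 2422 in R2i, and their part in the miR-211 difference was not tested. Most of that sum was miR-143-3p, at 3245 ± 187.8 in 2i and 1597 ± 395.4 in serum (SD, n = 2). The mean of miR-199a-3p was also higher in 2i than in serum (92.7 ± 11.1 against 38.7 ± 9.79). So were those of miR-199a-5p (80.5 ± 26.0 against 45.4 ± 47.9) and miR-145a-5p (71.5 ± 24.9 against 55.7 ± 15.7), but their 2i and serum libraries overlapped. In R2i, miR-199a-5p stood above its 2i mean, at 100.6 ± 36.0. The R2i means of miR-143-3p, miR-145a-5p and miR-199a-3p were below their 2i means. The 2i and R2i libraries overlapped for miR-145a-5p, miR-199a-3p and miR-199a-5p, and did not for miR-143-3p. miR-214-3p had 0 to 6 counts per library. In the other lists the 2i sums did not stand above those of both other media. The 4 neuron markers lay between 776 and 1079 in all libraries. The 4 blood markers summed to 132.5 and 355.1 in 2i, 248.5 and 258.2 in serum, and 48.9 and 115.8 in R2i. Both 2i sums of the blood markers were thus above both R2i sums, while the serum sums lay between the 2i sums. The part of the blood markers in the miR-211 difference was not tested either. miR-223-3p had 0 counts in all 6 libraries. The 3 muscle markers lay between 0.305 and 0.486 in 2i, 46.6 and 79.4 in serum, and 4.003 and 7.72 in R2i.

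Other miRNAs that sit in introns of paralogous host genes were taken as a list for comparison, and 8 of its 9 members were tested. Against serum, 3 rose and 1 fell in 2i, that is 4 of 8 beside 34.2% of all 571 miRNAs, with a median log2 difference of 0.51 beside -0.03. Those that rose were miR-499-5p of the myosin gene Myh7b (3.23, adjusted p = 0.000346, edgeR), miR-218-5p of Slit2 and Slit3 (1.34, adjusted p = 0.00344, edgeR) and miR-107-3p of Pank1 (1.01, adjusted p = 0.00952, edgeR). miR-208b-3p, from the slow myosin gene Myh7, fell by 4.17 (adjusted p = 0.00196, edgeR). The call of miR-107-3p was lost with the cell line as a replicate block and without any 1 library except serum RB20. miR-208b-3p, with 15 and 3 counts in 2i, moved to -6.09 without 2i RB18, -3.14 without 2i RB20 and -3.42 without serum RB18, where its call was lost, and the call of miR-218-5p was lost without either 2i library.

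In R2i against serum, miR-499-5p rose (3.01, adjusted p = 0.000601, edgeR) and miR-208b-3p fell (-4.14, adjusted p = 0.00256, edgeR), so that 2 of 8 were called beside 30.6% of all miRNAs, and the list median was 0.39 beside -0.07. Without R2i RB20, miR-499-5p moved to 2.34. The 2 myosin miRNAs thus went opposite ways in both media. The call of miR-208b-3p in R2i was lost without serum RB18 (-3.41) or without either R2i library. Between 2i and R2i, where edgeR called 2 of all 571 miRNAs and DESeq2 12, 0 of the 8 were called by either. An unadjusted p below 0.05 (edgeR) was reached by 104 of the 571 and by 0 of the 8. miR-499-5p, for example, had 151.4 ± 10.8 normalized CPM in 2i and 128.2 ± 66.1 in R2i (SD, n = 2).

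The pigment-cell list held miRNAs described as acting on MITF or in melanocytes and melanoma, and 12 of its 13 members were tested. In 2i, 1 rose against serum, miR-218-5p as above, and 0 fell, so that 1 of 12 was called beside 34.2% of all miRNAs. The median log2 difference was -0.03, equal to that of all miRNAs. In R2i, 2 of 12 fell and 0 rose, beside 30.6% of all miRNAs called. They were miR-146a-5p, a regulator of NF-κB signalling (-2.14, adjusted p = 0.00055, edgeR), and miR-31-5p (-1.76, adjusted p = 0.00103, edgeR). The median was then -0.25 beside -0.07.

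Between 2i and R2i, edgeR called 0 of the 12 and DESeq2 called 1, beside 2 and 12 of all 571 miRNAs. An unadjusted p below 0.05 (edgeR) was reached by 104 of the 571 and by 2 of this list. These 2 were miR-146a-5p, at 245.6 ± 47.7 normalized CPM in 2i and 98.5 ± 20.4 in R2i, and miR-31-5p, at 200.4 ± 17.5 and 96.5 ± 22.5 (SD, n = 2). Their log2 differences, 1.31 and 1.04, missed the limit (adjusted p = 0.0714 and 0.112, edgeR). In serum both were higher still, at 438.1 ± 19.7 and 329.7 ± 8.10, which is not the order seen for miR-211-5p.

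The eye list held miRNAs abundant in retina, pigment epithelium or lens, and all 10 were tested. Against serum, 2 of 10 were called in 2i, beside 34.2% of all miRNAs: 1 rose, miR-184-3p of the cornea and lens (2.72, adjusted p = 0.00385, edgeR), and 1 fell, miR-181a-5p (-1.58, adjusted p = 0.00854, edgeR). The median was -0.50 beside -0.03, and the call of miR-181a-5p was lost with the replicate block and without any 1 library except 2i RB18, while that of miR-184-3p was lost without either serum library. The difference of miR-184-3p was 3.34 without 2i RB18 and 1.72 without 2i RB20. miR-184-3p had 60.7 and 185.0 normalized CPM in 2i, 18.6 and 18.8 in serum, and 59.2 and 93.2 in R2i. Unlike those of miR-211-5p, its 2i and R2i values overlapped.

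In R2i, 1 of the eye list fell, miR-31-5p as above, and 0 rose, beside 30.6% of all miRNAs called, with a median of -0.37 beside -0.07. Between 2i and R2i, 0 were called by edgeR and 0 by DESeq2, beside 2 and 12 of all 571 miRNAs. An unadjusted p below 0.05 (edgeR) was reached by 104 of the 571 and by 2 of the 10. The list median was 0.29 beside 0.01.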

How the data were processed

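Counts per mature miRNA were deposited by the authors without normalization, after adaptor and length trimming, alignment to the mouse genome and matching to known miRNAs; the submitters' notes name cutadapt 1.3, Bowtie 1.1.2, featureCounts 1.5 and mm10. How multi-mapped reads and strand were treated is not given in the sources used here. The log2 values that the authors deposited for 1233 miRNAs equalled log2(count / size factor + 1) within 0.006.

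edgeR 4.0.16 (R 4.3.3) was run on the counts with TMM scaling, filterByExpr (minimum count 10, minimum total 15) and quasi-likelihood F-tests, modelling each medium by 1 coefficient across the 6 libraries; a prior count of 2 was used for profiles. DESeq2 1.42.0 and limma 3.58.1 were alternatives. p-values were Benjamini-Hochberg adjusted over all miRNAs tested; no exact permutation test of 2 against 2 libraries goes below 0.33. The fit was tested on simulated data. RB18 and RB20 pair the libraries as cell lines; RB20 minus RB18 deviations correlated at 0.211 (serum, 2i), 0.243 (2i, R2i) and -0.128 (serum, R2i). Library pairs of a medium differed beyond sampling noise. No value columns were left unused (0).

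The members and lists were chosen with earlier results of these data known. Named were the 4 members, the 5 and 3 miRNAs nearest in profile to miR-211-5p and miR-204-5p, and called members of the lists; the fibroblast markers, miR-223-3p, miR-224-5p and miR-125b-1-3p were named after their values were seen. Sequences are from RefSeq (GRCm38.p6), host introns from GENCODE M21; all 4 members matched. Figures were made with matplotlib 3.10.9.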

Additional observations from a re-analysis of the deposited data

Results flagged for a closer look

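miR-211-5p went opposite ways in the 2 lines for R2i minus serum, with a log2 difference of -0.74 in RB18 (41 against 107 counts) and 0.60 in RB20 (268 against 102 counts). Each line has 1 library per medium, and the difference between the lines was not tested.

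miR-204-5p also had opposite signs in the lines for 2i minus serum, at -0.32 in RB18 (9 against 10 counts) and 0.62 in RB20 (20 against 8 counts). This difference was not tested either, and the counting intervals of the ratios, 0.287 to 2.19 and 0.650 to 4.04, both include equality.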

How the results depend on the processing

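Of 268 recomputed values of 29 results, 233 were counted as unchanged. A tested difference had to keep its direction and side of the threshold, and an untested value had to stay within the replicate spread. A number of miRNAs called only had to stay within a set ratio of the main number. In 2i against serum, 257 at an adjusted p below 0.05 counted as unchanged beside 195 (edgeR). The nearest profiles had to keep most of their 5 members. miRNAs called between 2i and R2i numbered 2, against 12 with DESeq2, 25 without the filter on low counts, 0 with the cell line as a replicate block, and 0 to 3 with 1 library left out; the cause was not tested. Over libraries left out, miR-211-5p ranged from -0.63 to 0.49 for R2i minus serum and from 4.28 to 5.38 for 2i minus R2i. The block gave -0.035 for R2i minus serum, so its sign is not settled.

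For 2i minus serum, miR-204-5p was -0.093 without serum RB20 and -0.076 without 2i RB20, in a range of -0.093 to 0.53. With the block its 3 differences were 0.16, -1.37 and 1.53. Beyond the calls between 2i and R2i and those of miR-107-3p and miR-181a-5p, the block changed no call on the intronic, pigment-cell and eye lists. miR-204-5p stayed uncalled with it, and the block was not examined for the other miRNAs named. In 2i against serum, DESeq2 called 5 of the 10 on the eye list, where edgeR called 2. On the pigment-cell list it called 2 of 12, where edgeR called 1. Over all 571 miRNAs, DESeq2 called 219 in that comparison. In R2i against serum, DESeq2 called 2 of 10 on the eye list, 3 of 12 on the pigment-cell list and 3 of 8 on the intronic list. There edgeR called 1, 2 and 2, and DESeq2 called 187 of all 571 miRNAs. Called list members were recomputed after seeing the data. Depth limits miR-204-5p, at 1 to 20 counts, and miR-211-3p outside 2i, at 3 to 6.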
